A study of Mus musculus with 30 samples.

Results

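The comparison described here was the effect of a high dose of methylmercury (MeHg), the organic mercury found in fish, in mice that ate a selenium feed. It was defined by the treatment labels: 5 mice labelled Se_HD (selenium and high-dose mercury) against 5 mice labelled Se_Ctr (selenium and no mercury), 10 of the 30 hippocampus libraries in the series. All were male BALB/c mice, given selenium and mercury by mouth in a full factorial design that also held Se_LD (selenium and low-dose mercury) and Ctr, LD and HD on feed without added selenium, with 5 mice in each of the 6 groups. Age, exposure time and the amounts given on the selenium feed were not stated in the labels, whose series title names selenium-methionine as the form. The hippocampus was taken whole, so fewer cells of a type and less RNA per cell could not be told apart.

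MeHg crosses the blood-brain barrier as a complex with cysteine and binds thiol and selenol groups, among them the selenocysteine in the active sites of selenoproteins. Microglia, the resident macrophages of the brain, and astrocytes, which hold much of its glutathione, are known to react to mercury. Reactive astrocytes raise the filament protein GFAP, and activated microglia raise lysosomal, complement and phagocytic genes.

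Reads assigned to genes numbered from 7277756 to 10488656 in the Se_Ctr libraries and from 7313129 to 11270577 in the Se_HD libraries. Values are normalized counts, which are read counts divided by a size factor for each library. All 11 markers of hippocampal pyramidal and granule neurons were detected, with sums from 49428 to 78183 in Se_Ctr and from 50362 to 62639 in Se_HD; the highest Se_Ctr sum was that of library 28, and the other Se_Ctr mice were at most at 61079. The summed markers of the meninges and fibroblasts stood apart between the groups. Libraries are named by the library number in the labels.

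Few genes differed, and most of those named were higher in Se_HD. Among those of low p were complement C4b, the macrophage pore protein gene Mpeg1, the transcription factor Maf and the astrocyte filament gene Gfap, with increases of 1.27- to 1.79-fold. Fewer were lower, among them the neuronal kinesin heavy chain gene Kif5a, chosen after its values were seen, at 0.82-fold. Of 19679 genes tested, 405 (2.06%) were called, meaning that both the F test over Se_Ctr, Se_LD and Se_HD and the contrast of Se_HD with Se_Ctr had an unadjusted p under 0.05 in limma. Of these, 153 (0.777% of the genes tested) were lower in Se_HD and the rest (1.28%) were higher. This split depended on single mice. Without library 28 of Se_Ctr, 262 were higher and 292 lower, and without library 12 or 30 of Se_HD it was near even. The contrast alone was under 0.05 for 825 genes (4.19%), fewer than the 984 that this threshold would give across as many genes with no effect. After Benjamini-Hochberg adjustment 0 genes (0%) were under 0.05 in limma, the lowest adjusted p being 0.0979 for C4b; DESeq2 gave 4 such genes and edgeR 0. Single genes below are therefore described at the unadjusted threshold, with the values in each mouse for those described most fully.

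A mean of 10 or more over both groups was reached by 14186 genes, and the 5 Se_HD mice and the 5 Se_Ctr mice did not overlap for 124 (0.874%). Of the called genes, 269 had such a mean, and 73 of them did not overlap, 44 higher and 29 lower. With the meninges and fibroblast marker level as a covariate, a fit chosen after seeing the data, 334 genes were called, 113 higher and 221 lower, and 117 of them were among the 405. The marker level itself differed between the groups, so this fit also removes a part of the group difference.

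The gene with the lowest p was C4b (ENSMUSG00000073418, chr17:34865325-34880827, minus strand, NCBIM37), the complement factor that is cleaved on the way to C3 activation. Its normalized counts were 209, 207, 206, 158 and 297 in Se_Ctr and 418, 349.9, 335, 367 and 437 in Se_HD. Every Se_HD mouse was above every Se_Ctr mouse. The log2 difference was 0.84 ± 0.14 (SE, n = 5 a group, limma with Benjamini-Hochberg adjusted p = 0.0979), or 1.79-fold, and it stayed between 0.74 and 0.97 when any mouse was left out. The Se_LD mice, which had the same feed, lay at 206, 262, 228, 188 and 296, within the range of Se_Ctr. C4b has a close copy, C4a, with which reads could be shared.

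Mpeg1 (chr19:12535269-12539774, NCBIM37) encodes perforin-2, a pore-forming protein of macrophages and microglia. It was counted at 266, 251.6, 232, 229.7 and 285 in Se_Ctr and at 311, 332, 344, 339 and 361 in Se_HD. The groups did not overlap and the spread within each was narrow, with means of 253 ± 23.3 and 337 ± 18.2 (SD, n = 5). The log2 difference was 0.42 ± 0.07 (limma, Benjamini-Hochberg adjusted p = 0.155).

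Maf, a transcription factor of macrophages and of interneurons among others, was at 226, 227, 227, 232 and 206 in Se_Ctr and at 292, 281, 262, 289.9 and 296 in Se_HD. The Se_LD mice were between 213 and 229.6, so that the Se_HD mice stood alone. The log2 difference was 0.34 ± 0.07.

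Gfap (chr11:102748650-102762226, minus strand, NCBIM37), the intermediate filament that marks reactive astrocytes, was at 1596, 1949.6, 1637, 1610.4 and 2165 in Se_Ctr. It was at 2546, 2264, 2499, 2491 and 2909 in Se_HD, with no overlap. The log2 difference was 0.51 ± 0.12, or 1.42-fold (limma, Benjamini-Hochberg adjusted p = 0.728). It was between 0.46 and 0.58 when any mouse was left out, and its call was lost in the fit over all 30 libraries, where the unadjusted limma p was 0.0843.

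Vcam1, Ctla2a and Fggy were also among the genes of low p. Vcam1, an adhesion molecule of endothelium and other cells, was at 281, 284, 302, 249.7 and 277 in Se_Ctr and at 360.3, 347, 330.5, 412 and 429 in Se_HD. Ctla2a, a cysteine protease inhibitor gene with close copies in the mouse, was at 40.5, 57.0, 41.5, 49.2 and 33.2 in Se_Ctr and at 90.9, 70.9, 65.4, 68.9 and 88.8 in Se_HD. Both were higher in Se_HD, with log2 differences of 0.42 ± 0.10 and 0.79 ± 0.17. Fggy, a carbohydrate kinase gene, differed at low counts, from 4.69 to 12.3 in Se_Ctr and from 13.6 to 24.7 in Se_HD. Its Se_LD mice, at 10.3 to 20.1, overlapped both groups. The Ctr mice on control feed, with a mean of 17.7 ± 7.69, were near the level of Se_HD, so that Se_Ctr was the low group.

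**Figure D1:**
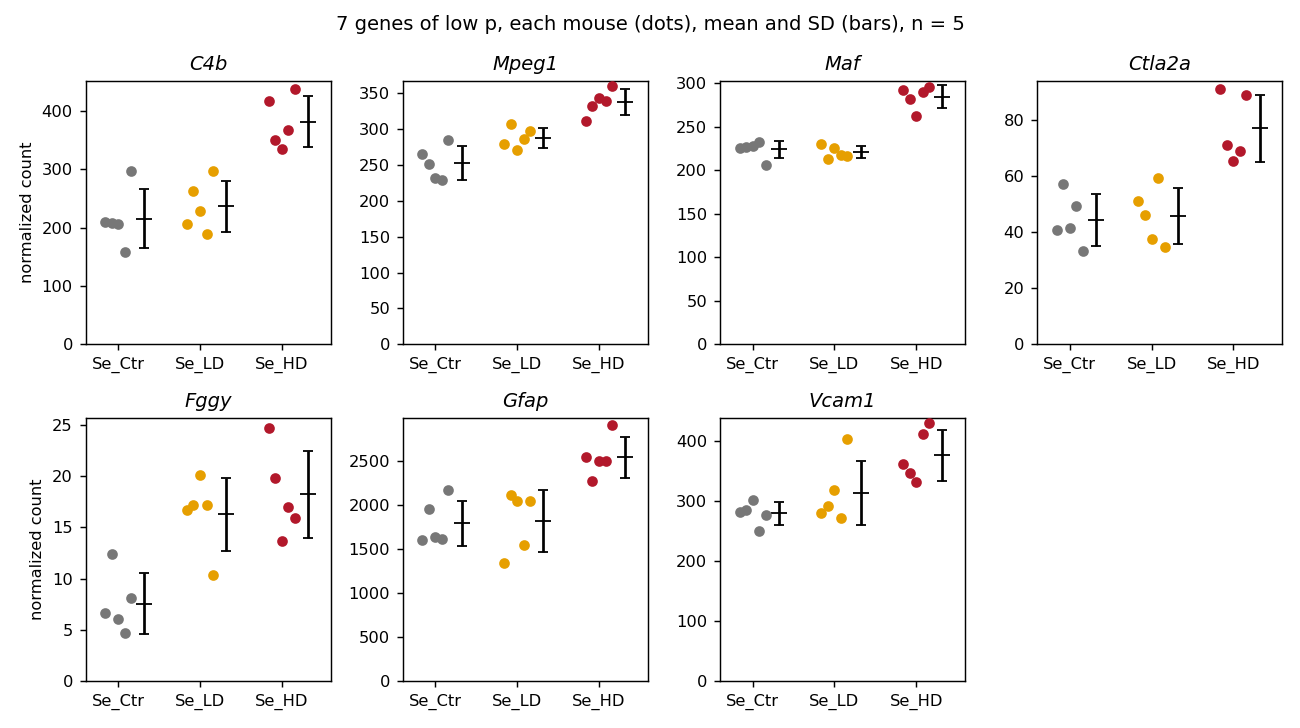
Normalized counts (vertical axis, from 0) of 7 genes of low p in each mouse of Se_Ctr, Se_LD and Se_HD (dots, 5 mice a group), with the mean and SD beside them. For C4b the 5 Se_HD mice sit between 335 and 437, above the highest Se_Ctr mouse at 297, and the Se_LD mice sit with Se_Ctr. For Fggy the Se_LD mice overlap both other groups.

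The counts of list members called are to be read beside the shares of all genes called, 1.28% higher and 0.777% lower; the lists were chosen with earlier results known, and no list was tested. In the complement list, 4 of 13 members tested were called higher and 0 lower, and all 13 had a log2 difference above 0. The median over the list was 0.35, where that over all genes tested was -0.0056 and 9488 of 19679 were above 0. Among the called members were C4b, the C1 inhibitor Serping1 and the chaperone clusterin, Clu. C1qa, C1qb and C1qc, which form the C1q recognition molecule of microglia, differed by 0.10 ± 0.09, 0.06 ± 0.11 and 0.16 ± 0.15 on the log2 scale and were not called. C1qb was at 149, 141, 132, 137 and 99.5 in Se_Ctr and at 132, 142, 134, 119.9 and 155 in Se_HD, overlapping groups whose difference had a 95% interval of -0.19 to 0.31.

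The called complement members did not behave alike across mice. Clu was above every Se_Ctr mouse in all 5 Se_HD mice, at 6538 to 7567 against 5769.8 to 6374. Serping1 was at 66.2, 64.8 and 87.6 in libraries 6, 12 and 30 but at 33.6 and 30.2 in libraries 18 and 24, against 28.1 to 37.2 in Se_Ctr. Leaving out a single mouse ended the call of Serping1 (library 30) and of Clu (library 4, 16, 22, 28 or 30), but not that of C4b. Clu was at 0.13 in place of 0.17 with the meninges and fibroblast covariate and was not called there.

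In the list of homeostatic microglia genes, 2 of 19 members were called, both higher: Mpeg1 and Sall1, the transcription factor of microglial identity, at 0.21 ± 0.09. The receptor Csf1r, on which microglia depend for survival, was at 0.16 ± 0.10 and was not called. The activated microglia list had 2 of 23 members called higher. These were the lysozyme gene Lyz2 at 0.78 ± 0.26 and Spp1, the secreted protein osteopontin, at 0.85 ± 0.31. Lyz2 was at 111, 140.3 and 176 in libraries 6, 12 and 30 and at 59.0 and 77.4 in libraries 18 and 24, against 40.3 to 77.4 in Se_Ctr. With the meninges and fibroblast covariate Lyz2 was at 0.25, Spp1 at 0.27 and Sall1 at 0.22, and none of these 3 was called. Markers of border macrophages, which line the meninges and vessels, summed to 144 and 140.0 in libraries 6 and 30 and to 48.2 to 83.1 in the other Se_HD mice, against 50.2 to 85.5 in Se_Ctr; 0 of 7 were called, the list median was 0.29, and their part in the differences of this and the antigen presentation list was not tested. The adaptor Tyrobp and the lysosomal membrane protein gene Cd68 were at 0.10 ± 0.15 and 0.07 ± 0.15 and were not called. The Tyrobp difference was -0.011 without library 30. The call of Sall1 was lost without library 4, 6, 18, 22 or 30, and that of Spp1 without library 6, 10, 12, 16, 28 or 30, whereas Mpeg1 and Lyz2 were called whichever mouse was left out.

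The lysosome list had 3 of 20 members called, all higher, and each had groups that did not overlap, as did 0.874% of all genes with a mean of 10 or more. Lamp2, a lysosomal membrane protein, was at 848, 856, 871, 939 and 931 in Se_Ctr and at 1105, 975.04, 1086, 1059.6 and 1111 in Se_HD. The cysteine protease genes Ctsc and Ctsh were higher by 0.35 ± 0.12 and 0.45 ± 0.17 on the log2 scale. Ctsc lost its call when library 4 or 16 of Se_Ctr or library 18 or 30 of Se_HD was left out, and Ctsh without library 6, 12, 16, 22, 28 or 30. Ctsc was at 0.34 and Ctsh at 0.25 with the meninges and fibroblast covariate, and neither was called there. Lamp2 was called whichever mouse was left out.

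In the list for antigen presentation, 2 of 12 members were called higher: the invariant chain Cd74, which guides MHC class II, and Tapbp, tapasin, which loads peptides on MHC class I. Cd74 was at 11.6, 7.60, 13.0, 16.4 and 7.17 in Se_Ctr and at 19.1, 35.1, 30.0, 17.9 and 63.7 in Se_HD, a low-count gene whose call was lost without library 30 and with a pseudocount of 0.1. In the interferon list, 1 of 15 members was called, Ifit3, at 5.70 to 8.96 in Se_Ctr and at 16.8, 16.8, 8.17, 10.4 and 26.2 in Se_HD, and its call too was lost without library 30. Tapbp lost its call without library 6, 12, 18, 22, 28 or 30, and was not called under edgeR or DESeq2. With the meninges and fibroblast covariate Cd74 was at 0.63 in place of 1.40, Ifit3 at 0.44 in place of 0.92 and Tapbp at 0.13 in place of 0.24, and none of these 3 was called.

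The reactive astrocyte list had 4 of 19 members called, all higher, and a median of 0.22. Besides Gfap these were the copper oxidase ceruloplasmin, Cp, the oncostatin M receptor Osmr and Aspg, an asparaginase gene. Cp was at 231, 194 and 239 in libraries 6, 12 and 30 and at 132 and 107 in libraries 18 and 24, with 81.7 to 122 in Se_Ctr. Osmr was higher by 0.54 ± 0.15, with library 24 at 48.2 inside the Se_Ctr range of 41.2 to 52.2. The call of Aspg was lost without library 4, 10, 12, 22 or 30. Osmr and Aspg were at 0.40 and 0.34 with the meninges and fibroblast covariate and were not called there. Vim, another filament gene of reactive astrocytes, was at 0.36 ± 0.17 and was not called. The homeostatic astrocyte list had 0 of 14 members called and a median of 0.04.

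**Figure D2:**
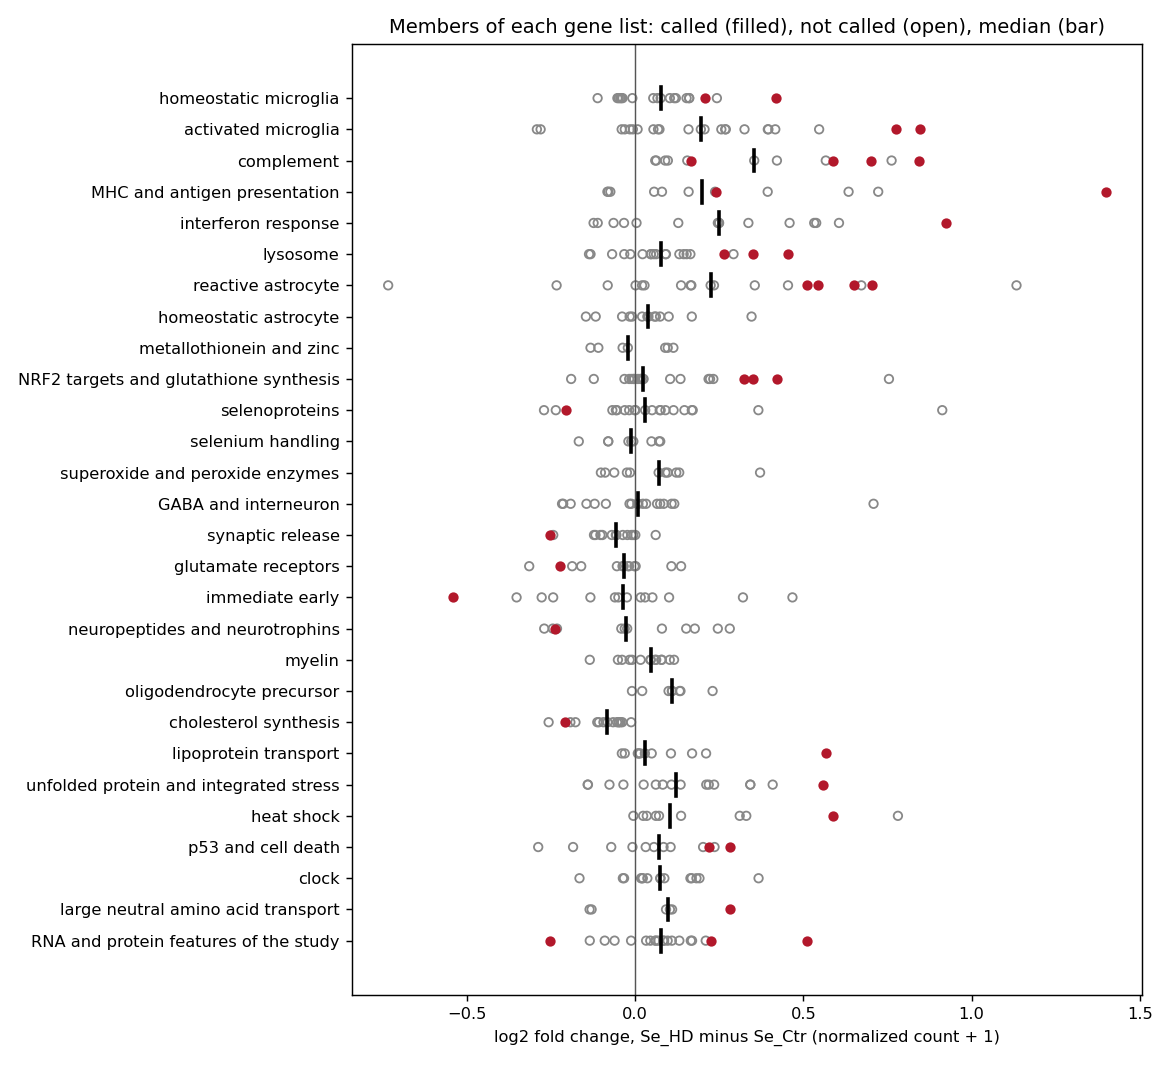
Log2 fold change of Se_HD over Se_Ctr (horizontal axis, on normalized count + 1) for every tested member of each gene list, filled where called and open where not, with the list median as a bar. Called members of the microglial, complement, lysosome and astrocyte lists lie to the right of 0, and the single called member of each of the synaptic, glutamate receptor and cholesterol lists to the left.

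Meninges and fibroblast markers moved with these differences. All 8 had a log2 difference above 0, 5 were called higher (Col1a1, Col1a2, Col3a1, Lum and Slc22a6) and the median was 0.78. Taken singly, 0 of the 8 markers had groups that did not overlap. Their summed level was 1816 to 4386 in Se_Ctr and 4766 to 7018 in Se_HD, with no overlap, and 1079 to 6027 in Se_LD. Most of that sum was Igf2, a growth factor gene of meninges and choroid plexus, at 1399 to 3449 in Se_Ctr and 3121 to 5468 in Se_HD. The collagen gene Col3a1 was at 78.6, 92.2 and 119.5 in libraries 6, 12 and 30, and at 30.9 and 36.8 in libraries 18 and 24, against 23.4 to 35.4 in Se_Ctr. Without library 6, 12 or 30, each in turn, Col1a1, Col1a2, Lum and Slc22a6 were no longer called; Col1a2 also needed library 28, and Lum libraries 4 and 22. Choroid plexus markers were also above 0 for 12 of 12 members, with a median of 0.75, but 0 were called and the sums overlapped, at 6515 to 22030 in Se_Ctr and 9755 to 36298 in Se_HD. Ependyma markers were above 0 for 6 of 6 members, with a median of 0.38 and 0 called. Their sums overlapped, at 188 to 293 in Se_Ctr and 200 to 422 in Se_HD.

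**Figure D3:**
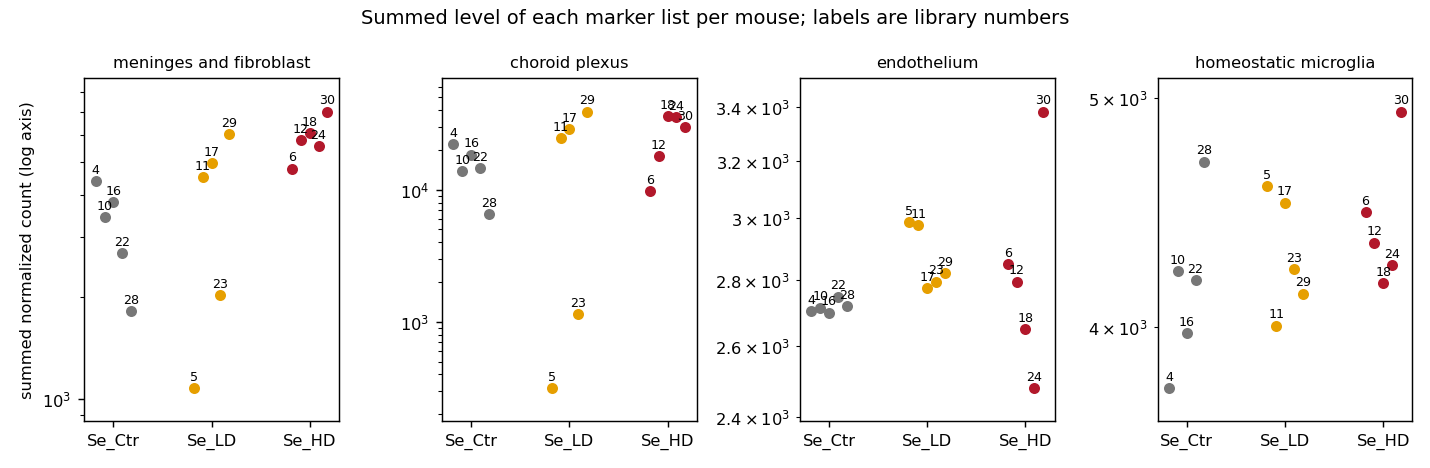
Summed normalized count (log axis) of 3 marker lists and of the homeostatic microglia list in each mouse, labelled by library number. The meninges and fibroblast sums of the Se_HD mice, 4766 to 7018, lie above those of the Se_Ctr mice, 1816 to 4386, and the Se_LD mice spread over both; the sums of the other lists overlap.

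Serping1, Cp, Lyz2, the lipocalin Apod and the cystine transporter Slc7a11 were high in the same libraries 6, 12 and 30 as the collagens; these 5 genes were grouped after their values were seen, and the part of meningeal tissue in the differences was not tested. Apod was at 1827, 1449 and 2103 there and at 1196 and 917 in libraries 18 and 24, against 889 to 1033 in Se_Ctr. With the meninges and fibroblast level as a covariate, Cp was at 0.31, Lyz2 at 0.25, Serping1 at 0.17, Apod at 0.10 and Slc7a11 at 0.04, and none of these 5 was called. The covariate was made from the collagens and other markers, so smaller differences here follow from how the 5 were grouped. Apod also lost its call without library 6 or 30. Of 55 called genes followed across the alternative fits, 14 were called in that fit and 41 were not. The 41 include Col1a1, Col1a2, Col3a1, Lum and Slc22a6. These are members of the marker list that makes the covariate, so their loss follows from its make-up. Of all 405 called genes, 117 were called in that fit. Among the 14 were C4b at 0.72, Mpeg1 at 0.40, Maf at 0.33, Gfap at 0.43, Vcam1 at 0.33, Lamp2 at 0.25, Ctla2a at 0.70, Fggy at 1.20, Vamp1 at -0.24 and Kif5a at -0.25.

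**Figure D4:**
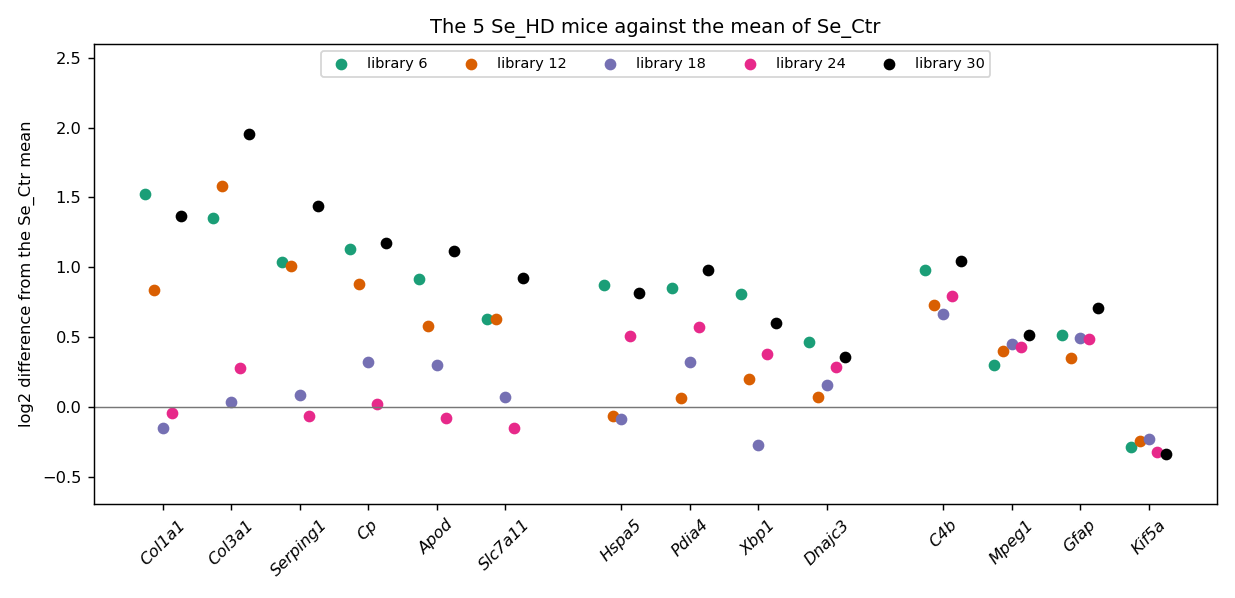
Log2 difference of each Se_HD mouse from the Se_Ctr mean (vertical axis; colours mark the 5 libraries) for collagens with genes of a like pattern, for chaperones and for genes of low p. Libraries 6, 12 and 30 are high for Col3a1, Serping1 and Apod, whereas all 5 mice lie close together for Mpeg1 and Kif5a.

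Among genes of the unfolded protein and integrated stress response, which restore protein folding in the endoplasmic reticulum (ER), 1 of 16 members was called, the disulfide isomerase Pdia4, and the list median was 0.12. Pdia4 was at 257, 326, 297, 251 and 250.003 in Se_Ctr and at 497, 287, 343, 409 and 542 in Se_HD, or 0.56 ± 0.15 on the log2 scale. Hspa5, the ER chaperone BiP, was at 2013, 2268, 2139, 1798 and 1560.1 in Se_Ctr and at 3544, 1855, 1825, 2761 and 3413 in Se_HD. Libraries 6, 24 and 30 were above every Se_Ctr mouse, and libraries 12 and 18 were within their range. The difference was 0.41 ± 0.17 (exact two-sided permutation p = 0.119) and the gene was not called. Dnajc3, the ER cochaperone P58IPK, was no member of the list and was chosen after its values were seen; it was called at 0.27 ± 0.08. The transcription factor Xbp1 was at 0.34 ± 0.16 and was not called.

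A motif that carries ER stress signals to promoters, the ER stress element, was searched as CCAAT, any 9 bases and CCACG on both strands, in RefSeq promoter windows of GRCm38.p6 from 250 bases before to 50 after the gene start. It was in 0.137% of the 27025 genes with a window, and in 3 of 16 list members, Hspa5, Hsp90b1 and Creld2, and in Dnajc3; Pdia4's window did not hold these letters. The stretches are shown because these genes, of the ER stress list or described above, hold the motif, with the motif in capitals, 5′ to 3′ along the gene strand. They lie at chr2:34772005-34772063 (plus), chr10:86705618-86705676 (minus), chr15:88819500-88819558 (plus, motif on the other strand) and chr14:118937807-118937865 (plus).
Hspa5: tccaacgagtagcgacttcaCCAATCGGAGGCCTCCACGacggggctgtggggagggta
Hsp90b1: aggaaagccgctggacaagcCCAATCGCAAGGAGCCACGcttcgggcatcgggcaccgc
Creld2: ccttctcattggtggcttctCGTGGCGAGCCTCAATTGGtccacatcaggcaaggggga
Dnajc3: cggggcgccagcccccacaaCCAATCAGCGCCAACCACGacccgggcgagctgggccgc

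Of these 4 genes only Dnajc3 was called, and with the meninges and fibroblast covariate it was at 0.21 and was not called; Hsp90b1 and Creld2 were at 0.14 ± 0.09 and 0.21 ± 0.23. A match of letters is a description and not a measured binding site.

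Among NRF2 targets and glutathione genes, 3 of 21 were called, all higher, and the list median was 0.02. NRF2 is the transcription factor that answers electrophiles such as mercury. Its own gene Nfe2l2 was at 0.35 ± 0.11 and the glutathione transferase Gstm1, of a family of near copies, at 0.32 ± 0.08. Gstm1 was at 1406, 1378, 1344, 1391 and 1124 in Se_Ctr and at 1735, 1823, 1375, 1632 and 1761 in Se_HD, where library 18 lay in the Se_Ctr range. Slc7a11, which imports cystine for glutathione, was at 0.42 ± 0.17, in the pattern of libraries 6, 12 and 30 described above. The call of Nfe2l2 was lost without library 6 or 30 and that of Slc7a11 without library 4, 6, 12, 16, 22 or 30. Nfe2l2 was at 0.25 and Gstm1 at 0.21 with the meninges and fibroblast covariate, and neither was called there. The sulfiredoxin gene Srxn1, another target, was at -0.12 ± 0.06 and was not called.

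Of 21 selenoprotein genes tested, 1 was called, and it was lower. Sepw1, selenoprotein W, was at 6021, 6768, 5447, 6224 and 5407 in Se_Ctr and at 5145, 5108, 5054, 5423 and 5095 in Se_HD, a difference of -0.21 ± 0.07. Library 24 was above the lowest Se_Ctr mouse, and the call was lost without library 4, 6, 10, 12, 18, 22 or 30 and with the meninges and fibroblast covariate, at -0.16. Gpx4, which reduces lipid peroxides, and Sepp1, the plasma selenium carrier, were at 0.17 ± 0.09 each and were not called. In the list for selenium handling 0 of 9 were called, and in the metallothionein and zinc list 0 of 7. The metal-binding Mt1 was at 0.11 ± 0.11 and Mt2 at 0.09 ± 0.15, with intervals of -0.14 to 0.36 and -0.23 to 0.41. The superoxide dismutases Sod1, Sod2 and Sod3 were at 0.07 ± 0.11, -0.02 ± 0.07 and 0.37 ± 0.16, and none was called.

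The synaptic release, glutamate receptor, immediate early and neurotrophin lists had 1 called member each, which was lower, where 0.777% of all genes were called lower. The markers of hippocampal pyramidal and granule neurons lay below 0 for 9 of 11 members, with a median of -0.13 and 0 called, and the part of neuron content in these differences was not tested. Kif5a, which carries cargo along axons and was chosen after its values were seen, was at 15657, 15360.0, 14948, 15860.5 and 15839 in Se_Ctr and at 12748, 13134, 13266, 12406 and 12273 in Se_HD. The Se_LD mice were at 14712 to 18006, so that Se_HD alone stood lower, by -0.28 ± 0.07 on the log2 scale. In the synaptic release list 1 of 15 members was called, Vamp1, a vesicle fusion protein, at 1204, 1233, 1202, 1285 and 1263 in Se_Ctr and 939.6, 1086, 1124, 994 and 1061 in Se_HD; 2 of the 15 were above 0. The groups did not overlap and the difference was -0.25 ± 0.08.

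Other called neuronal genes were the glutamate receptor Grm3, at -0.22 ± 0.07 (1 of 13 in its list), and Cacng2, stargazin, an AMPA receptor subunit chosen after its values were seen, at -0.29 ± 0.08. The activity-dependent transcription factor Npas4 was at -0.54 ± 0.20 (1 of 14 immediate early genes) and the neurotrophin Bdnf at -0.24 ± 0.10 (1 of 12). Bdnf was not called under edgeR or DESeq2, nor without library 4, 10, 12, 18, 22, 28 or 30, and Npas4 not without library 18. Grm3 was at -0.13, Cacng2 at -0.15, Bdnf at -0.14 and Npas4 at -0.52 with the meninges and fibroblast covariate, and none of these 4 was called there. The GABA and interneuron list had 0 of 18 called. Gad1, which makes GABA, was at 2346, 2635, 2925, 2808 and 2455 in Se_Ctr and at 2619, 2618, 3049.7, 2433 and 2745 in Se_HD, with a 95% interval of -0.12 to 0.19 around 0.03. The myelin list also had 0 of 14 called.

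In the cholesterol synthesis list all 15 members tested had a log2 difference below 0, with a median of -0.08, and 1 was called. It was Insig1, which holds the sterol sensor in the ER, at -0.21 ± 0.08. Fdft1, squalene synthase, was at -0.18 ± 0.08 and was not called. The anti-apoptotic genes Bcl2l1 and Bcl2 were called higher in a list of 12 with 0 lower, at 0.22 ± 0.06 and 0.28 ± 0.10. Slc38a2, which imports neutral amino acids, was called at 0.28 ± 0.08, and the small heat shock gene Hspb8 at 0.59 ± 0.22. The call of Bcl2 was lost without library 6, 16, 24, 28 or 30 and that of Hspb8 without library 30. In the fit with the meninges and fibroblast covariate Hspb8 was at 0.22, Slc38a2 at 0.18, Bcl2 at 0.18 and Insig1 at -0.20, and none of these 4 was called, whereas Bcl2l1 was.

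Among called genes whose mice did not overlap, further large increases were in Lepr, the leptin receptor (65.1 to 124 against 25.1 to 52.2), Flnc, filamin C (23.6 to 43.3 against 12.9 to 17.4), and Gpr182, an endothelial chemokine scavenger (25.4 to 55.8 against 15.2 to 23.2). Decreases of this kind included Slc2a9, a urate transporter (12.5 to 26.4 against 27.5 to 45.7), Nagpa, which uncovers the lysosomal sorting signal (19.8 to 35.3 against 35.6 to 45.7), and Nfkbil1 (22.5 to 29.3 against 30.5 to 50.3). Nagpa lost its call without library 24 and Nfkbil1 without library 10. Lepr is also expressed in choroid plexus. With the meninges and fibroblast covariate Lepr was at 0.82 in place of 1.16, Flnc at 0.79 in place of 1.02, Slc2a9 at -0.34 in place of -0.69 and Nfkbil1 at -0.48 in place of -0.61, and none of these 4 was called. Gpr182, at 0.63 in place of 0.92, and Nagpa, at -0.73 in place of -0.54, were called.

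The same high-dose label on control feed gave more called genes, and larger differences in genes chosen by their result there. Its groups differed in depth, with median reads on genes of 7119788 in Ctr and 10159514 in HD. Choroid plexus markers there had a median log2 difference of 1.45 with 0 called, and 4 of 6 ependyma markers were called higher. The part of depth and tissue was not tested. No mouse was shared between the feeds. In HD against Ctr 1019 of 20031 genes (5.09%) were called, and 26 (0.13%) had a Benjamini-Hochberg adjusted p under 0.05 in limma. Of these 26, 25 were tested on selenium feed; 22 had the same direction there, 7 were called and 25 had a smaller log2 difference. Their median was 1.69 on control feed, which chose them, and 0.16 on selenium feed. Choosing genes by a low p on control feed makes that difference the larger by construction.

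Gfap was at 1430 to 1988 in Ctr and 4080.2 to 32820.3 in HD, against 2264 to 2909 in Se_HD. Its log2 difference was 2.39 on control feed and 0.51 on selenium feed, and the test of the difference between feeds gave -1.88 (limma, Benjamini-Hochberg adjusted p = 0.149). C4b was at 492 to 1573 in HD and 335 to 437 in Se_HD, with 1.69 on control feed against 0.84. C1qb, at 165 to 790.0 in HD, had 1.71 on control feed against 0.06, and Tyrobp 1.71 against 0.10. Gad1 was lower on control feed by -0.45 and at 0.03 on selenium feed. Ctla2a, at 0.90 and 0.79, Maf, at 0.33 and 0.34, and Gstm1, at 0.48 and 0.32, were close on both feeds. The difference between feeds had an unadjusted p under 0.05 for 1021 of 21383 genes (4.77%), and 0 passed adjustment in limma, with a lowest adjusted p of 0.108, or in edgeR.

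**Figure D5:**
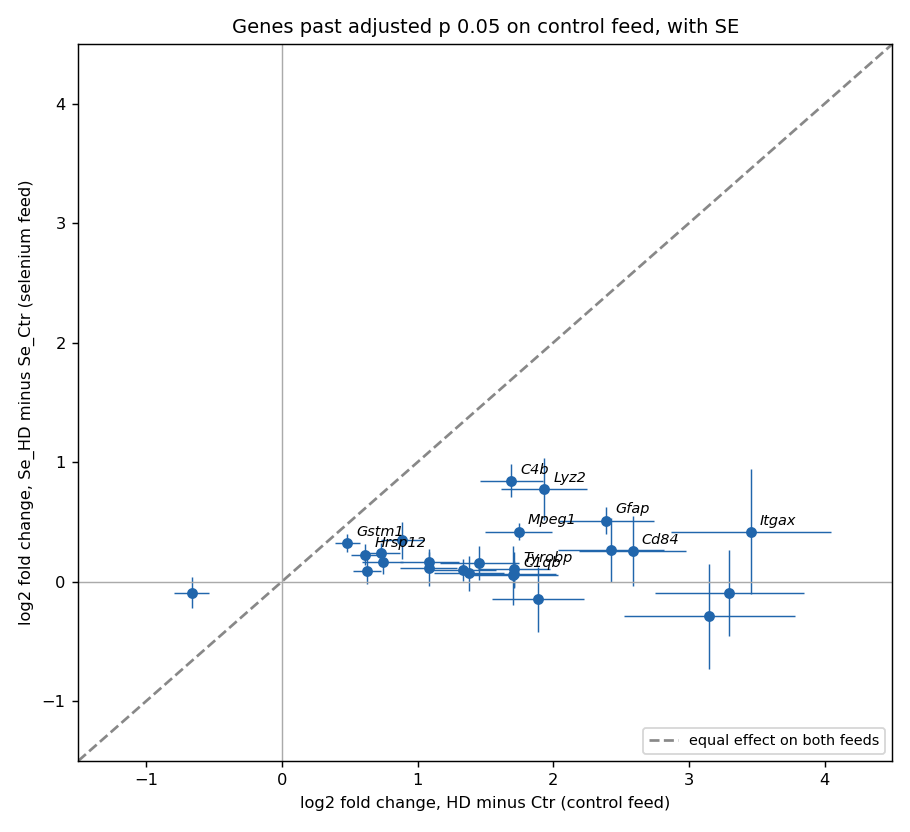
Log2 fold change of Se_HD over Se_Ctr (vertical axis) against that of HD over Ctr (horizontal axis), with SE, for the 25 tested genes with an adjusted p under 0.05 on control feed; the broken line marks equal effects. The genes were chosen on the horizontal axis, and all 25 have the smaller difference on selenium feed.

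In the study, 20 features passed an analysis of variance over Ctr, LD and HD in both RNA and protein on control feed. By the rule used here on RNA, 11 of their genes were called higher and 5 lower in HD against Ctr. On selenium feed 3 were called, Gfap and Hrsp12, higher, and Vamp1, lower. Since the list was chosen on other mice of this series with these results known, its count is a description. Of the 20, 16 had the same direction as in HD against Ctr and 19 had a smaller log2 difference. Their choice on control feed makes the difference there the larger by construction. Hrsp12, a deaminase of reactive metabolites, was at 362 to 418 in Se_HD and 282 to 369.8 in Se_Ctr, and its call was lost without library 6, 24 or 28 and with the meninges and fibroblast covariate, at 0.19 in place of 0.22. Of the 401 genes called on selenium feed and tested on both feeds, 59 were also called on control feed, 14.7% of these and 5.95% of the 992 called there, beside 5.09% of all genes called on control feed and 2.06% on selenium feed, and 57 of the 59 had the same direction.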

How the data were processed

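Hippocampal RNA from 30 mice was sequenced with a stranded mRNA kit, single end. Per the submitters' processing notes the authors trimmed reads with Trim Galore 0.4.2, aligned them with HISAT2 to NCBIM37 and counted genes with featureCounts, then divided them by DESeq2 size factors and removed genes with few reads. The deposited table thus holds a normalized signal, not counts, for 21412 genes. Whole read counts were recovered from its steps (100% of low values whole within 0.1 reads) and used for edgeR 4.0.16 and DESeq2 1.42.0 as alternatives. The test was limma 3.58.1 with trend on log2(value + 1), so fold changes understate those of low genes, over the 15 libraries of Se_Ctr, Se_LD and Se_HD and genes with a sum of at least 10. It follows the study's order of tests, an analysis of variance over 3 groups and then contrasts at an unadjusted p under 0.05. SE is limma's; 95% intervals use 12 residual degrees of freedom. Intervals cover the spread between mice only. Per the study's methods, mice were housed individually. Scripts were tested on simulated data.

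Named genes were those among called genes whose mice did not overlap with the 10 highest and 10 lowest differences, the 8 of lowest p, up to 5 of each of 40 gene lists, the study's 20 features and Sod1 to Sod3, and the 5 of lowest interaction p; some of these are not reported here. The members and lists were chosen with earlier results of these data known. Alternatives were pseudocounts of 0.1 and 10, filters, quantile normalization, other fits and leaving out each mouse. Gene symbols came from the annotation for 21326 genes. Promoter sequences are RefSeq's, of GRCm38.p6, and no coordinate was converted.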

Additional observations from a re-analysis of the deposited data

Results flagged for a closer look

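In groups of 5 mice, a value was looked at again where its gap to the nearest other mouse, over the range of the group, was above 0.710 on the log2 scale. Of 192 groups this held for 11, where chance gives about 9.6 (1 in 20). Library 28 of Se_Ctr was such a mouse for Maf (0.772), Lepr (0.712), Hsp90b1 (0.759), Gstm1 (0.800), Sod1 (0.788) and Grm3 (0.767), and library 16 of Se_Ctr for Bdnf (0.812). In Se_HD it was library 30 for Clu (0.751) and Hadhb (0.732), library 24 for Sepw1 (0.749) and library 12 for Il1b (1.000), the only Se_HD mouse above 0 for that gene.

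The high-dose difference was not the same on both feeds, by an unadjusted interaction p under 0.05 in limma, for 28 of the 96 genes compared; 0 passed adjustment. Of all 21383 genes 4.77% had such a p, and the 96 include 4 of the 5 genes named for the lowest interaction p, Il1b, Tyrobp, Mpeg1 and Gfap, and others chosen with earlier results known, so their count is a description. Negative values mean a lower log2 difference on selenium feed. For microglial genes they were Itgax -3.04, Il1b -3.49, Cd84 -2.33, Cd14 -2.16, Clec5a -2.04, C1qb -1.65, Tyrobp -1.61, Mpeg1 -1.33, Cd68 -1.31, C1qc -1.30, C1qa -1.23, Lyz2 -1.16, Ctss -0.92 and Csf1r -0.58. Il1b was called lower on selenium feed, at -1.24, but its difference there ran from -3.36 to -0.24 across the fits. It lost the call in 11 settings, edgeR and DESeq2 among them. For astrocyte, complement, lysosome and metal genes they were Gfap -1.88, Osmr -0.96, C4b -0.85, Mt2 -0.81, Ctsh -0.66, Clu -0.42, Hrsp12 -0.39, Mt3 -0.38 and Srxn1 -0.30. Slc2a9 was at -0.79. Positive values were Fggy 1.65, Slc22a6 1.45, Gad1 0.49 and Sepw1 0.46.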

How the results depend on the processing

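The 405 genes called became 951 with Se_Ctr and Se_HD alone in the fit, where the F test equals the contrast, 825 with the contrast alone and 221 with all 30 libraries. Leaving out 1 mouse gave 322 to 554, with 554 without library 28 (262 higher and 292 lower). Other fits gave 277 to 456. Over 96 genes and 22 settings, 1859 of 2110 values kept their direction and side of the threshold, 196 lost the call, 42 gained it and 13 changed sign. The sign changes were in genes not called, except Col1a2 and Slc22a6, at -0.0585 and -0.0668 with the meninges and fibroblast covariate. Both are members of the marker list that makes this covariate. That covariate, added after seeing the data, also gave C1qb -0.0372, Sod2 0.0619 and Ttr -0.137. For Ttr this was no small change, as leaving out a mouse kept it between 0.445 and 1.06. Leaving out a mouse gave a lowest and highest value of -0.0112 and 0.205 for Tyrobp, -0.0376 and 0.107 for C1qb, -0.0630 and 0.157 for Mt2, -0.0377 and 0.113 for Sod1, -0.0402 and 0.0300 for Sod2 and -0.0132 and 0.0717 for Gad1. The fit over all 30 libraries ended the call of Gfap, Gpr182, Slc2a9, Nfkbil1, Nagpa, Neb, Sall1, Spp1, Clu, Ctsc, Osmr, Aspg, Sepw1, Bdnf, Npas4, Insig1, Bcl2l1, Col1a1 and Lum. An ordinary model for each gene alone ended that of Cd74, Clec3b, Mxra8, Spp1, Tapbp, Ctsh, Aspg, Slc7a11, Hspb8, Bdnf, Npas4, Apod, Bcl2, Col1a1, Col1a2, Lum, Slc22a6 and Il1b. The causes were not tested. The labels give no replicate numbers, but library numbers run in sets of 6 with 1 mouse of each group. With the set as a replicate block 400 genes were called, 1 had an adjusted p under 0.05 in limma, Clu, Tapbp and Neb lost the call and Igf2 gained it. Se_Ctr and Se_HD mice of one set did not deviate together (r over 14186 genes from -0.11 to -0.03, and 0 of 5 Se_HD mice correlated best with their own set), so the sets were not taken as pairs. Genes with few reads limit precision: 136 of the 405 had a mean under 10.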
